A study of Mus musculus with 13 samples.

Results

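Bone marrow progenitors of B cells and other lymphocytes, called common lymphoid progenitors (CLP), were compared between the compartment that carries both surface proteins Ly6D and Gfra2 and the compartment that carries neither. The comparison holds 6 of the series' 13 RNA sequencing libraries, 3 labelled Ly6D+Gfra2+ and 3 labelled Ly6D-Gfra2-. All 6 have a library name that starts with T, a prefix whose meaning the labels do not give, so the prefix cannot differ between the groups. Every cell came from the bone marrow of C57BL/6 mice of WT genotype and was taken by fluorescence-activated sorting, with no treatment named. The labels give neither age nor sex, nor the number of mice or sorted cells. Whether replicates 4, 5 and 6 of a group came from different mice is not said, and every p-value here is set against the spread among libraries alone, which may be technical.

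CLP express the receptor for interleukin 7 and can still give rise to several kinds of lymphocyte. Ly6D appears on the CLP that turn toward the B lineage. There, the transcription factors E2A, Ebf1 and Foxo1 switch on the genes of the recombinase and of the pre-B-cell receptor, and Pax5 then commits the cell to the B lineage. Gfra2 is the co-receptor for neurturin, a growth factor of the GDNF family best known from neurons, and signals in neurons through the kinase Ret. Cd34 marks stem cells and early progenitors and is lost as they mature.

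Levels are given as CPM, counts per 1000000 counts on a TMM scale, which corrects for differences in library composition, and libraries are named in the order of replicates 4, 5 and 6. A gene was called at a Benjamini-Hochberg adjusted p under 0.05 in the edgeR quasi-likelihood test over all genes tested. Log2 fold changes are Ly6D+Gfra2+ minus Ly6D-Gfra2-, each with its standard error (SE) from that test. In bulk libraries, fewer cells with a transcript and less of the transcript per cell cannot be told apart.

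Genes of the early B-cell programme lead the comparison, and stretches before the start sites of 5 of them are shown because they carry letters known as binding motifs of B-lineage factors. Each runs 5′ to 3′ on the strand of its gene over the 250 bases before the start, from the RefSeq promoter table for GRCm38.p6. Capitals mark matches, on either strand, to 3 motifs: CCCNNGGG, the core of Ebf sites; ATGCAAAT, the octamer bound by the Oct factors that Pou2af1 serves; and CAGGTG, an E-box bound by E2A and related factors. Igll1 lies on chr16:16863986-16864235 on the minus strand, Rag1 on chr2:101649533-101649782 on the minus strand and Cd79a on chr7:24897247-24897496 on the plus strand. Foxo1 lies on chr3:52268087-52268336 on the plus strand and Blnk on chr19:40994222-40994471 on the minus strand.
Igll1: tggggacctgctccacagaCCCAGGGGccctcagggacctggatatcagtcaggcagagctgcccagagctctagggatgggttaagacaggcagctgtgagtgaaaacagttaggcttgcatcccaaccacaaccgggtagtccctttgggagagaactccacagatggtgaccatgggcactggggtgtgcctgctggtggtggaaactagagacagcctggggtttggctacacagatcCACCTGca
Rag1: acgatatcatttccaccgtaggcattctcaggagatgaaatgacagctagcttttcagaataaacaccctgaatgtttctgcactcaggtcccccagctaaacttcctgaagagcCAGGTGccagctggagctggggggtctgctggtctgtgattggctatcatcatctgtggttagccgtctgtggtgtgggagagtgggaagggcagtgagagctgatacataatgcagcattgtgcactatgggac
Cd79a: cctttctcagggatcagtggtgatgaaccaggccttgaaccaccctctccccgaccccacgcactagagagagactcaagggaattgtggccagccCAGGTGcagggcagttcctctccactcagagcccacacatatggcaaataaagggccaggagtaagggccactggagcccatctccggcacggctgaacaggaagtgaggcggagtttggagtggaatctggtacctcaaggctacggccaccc
Foxo1: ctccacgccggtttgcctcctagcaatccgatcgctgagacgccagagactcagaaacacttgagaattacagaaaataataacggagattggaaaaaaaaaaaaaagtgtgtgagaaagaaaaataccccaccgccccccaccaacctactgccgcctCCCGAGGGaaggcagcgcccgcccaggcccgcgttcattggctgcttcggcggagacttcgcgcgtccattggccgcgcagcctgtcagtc
Blnk: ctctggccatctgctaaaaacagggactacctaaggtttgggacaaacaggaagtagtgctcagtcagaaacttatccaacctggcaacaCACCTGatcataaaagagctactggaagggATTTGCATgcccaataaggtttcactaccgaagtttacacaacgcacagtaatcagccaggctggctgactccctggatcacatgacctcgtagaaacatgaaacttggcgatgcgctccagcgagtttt
In the Igll1 stretch the capitals mark an Ebf core near the far end and an E-box close to the start. Those of Rag1 and Cd79a hold 1 E-box each, that of Foxo1 an Ebf core, and that of Blnk an E-box and an octamer. The motifs were searched in the full window from 250 bases before to 50 bases after each start. Among the 8 called genes of the B-lineage, pre-B-cell receptor and recombination lists that the table holds, 2 had an Ebf core, 1 an octamer and 4 an E-box. Pou2af1, Ebf1 and Pax5 had none of the 3 in this window. Over all 32851 promoters of the table, 13.7% held the Ebf core, 1.7% the octamer and 20.2% the E-box. Over the 11664 promoters of genes tested, the shares were 17.7%, 1.3% and 17.3%. Of the 30 promoters of 22 called higher genes, 13.3% held the Ebf core, 6.7% the octamer and 26.7% the E-box. A match is a description of the letters, not a site.

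The 6 libraries held 6892728 to 10847792 counts, at which 3 counts correspond to 0.25 to 0.393 CPM. Identifiers with at least 1 count numbered 13407, 13684 and 13368 in Ly6D-Gfra2- and 11873, 10837 and 12369 in Ly6D+Gfra2+. After every library was thinned to the smallest total the means were 13390 ± 63.3 and 11591 ± 791 (SD, n = 3), and the groups did not overlap (exact two-sided permutation p = 0.1, the smallest that 3 against 3 can give). The Ly6D+Gfra2+ libraries also differed more among themselves. Their correlations over genes were 0.694 to 0.741, against 0.873 to 0.88 among Ly6D-Gfra2- libraries and 0.72 to 0.787 between the groups; genes are not independent replicates. The median SD of the log2 level over 9341 genes was 0.849 in Ly6D+Gfra2+ and 0.378 in Ly6D-Gfra2-. Over the 30 genes called higher below, it was 0.263 in Ly6D+Gfra2+ and 0.317 in Ly6D-Gfra2-. Of the genes with a group mean of at least 10 CPM, 317 of 8752 were at 0 in at least 1 Ly6D+Gfra2+ library, against 2 of 8946 in Ly6D-Gfra2-.

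Some libraries carried transcripts of other cells. Ly6D-Gfra2- replicate 5 had a summed level of 7 erythroid markers of 384 CPM, against 8.97 to 61.6 CPM in the other 5 libraries, and it alone had Ngp, a neutrophil granule gene, above 1 CPM, at 114 CPM. The sum of 7 neutrophil and monocyte markers, in which Mpo of early myeloid cells has a large share, was 726, 1390 and 1010 CPM in Ly6D-Gfra2- and 178, 396 and 441 CPM in Ly6D+Gfra2+. The sum of 4 stroma and endothelium markers reached 51.9 CPM in Ly6D+Gfra2+ replicate 6 and was at most 8.79 CPM elsewhere. The 6 markers of mature B and plasma cells summed to 74, 33.5 and 21.6 CPM against 37.6, 308 and 117 CPM, with Ms4a1, which encodes the mature B-cell protein CD20, at 0 in all 6. The 5 T-cell markers summed to 17.3, 8.02 and 8.52 CPM against 0.116, 0.121 and 3.3 CPM. Of this, Cd4 made 17.2, 7.68 and 6.82 CPM against 0.116, 0 and 2.97 CPM. The 3 NK markers reached at most 5.51 CPM, the 3 megakaryocyte markers at most 3.84 CPM, and the 2 plasmacytoid dendritic markers 28.6 to 52.7 CPM. Their part in the results was not tested.

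**Figure D1:**
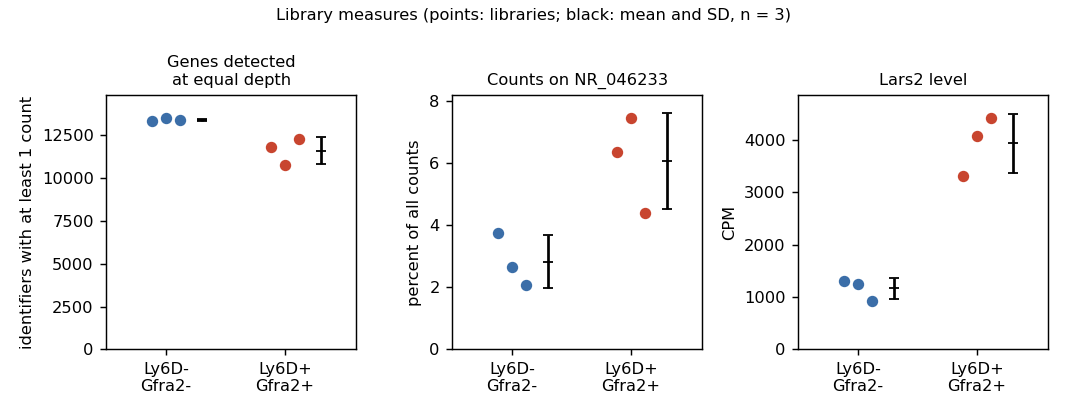
Identifiers detected at equal depth (left), percent of all counts on the identifier NR_046233 (middle) and the Lars2 level in CPM (right) in the 6 libraries. Points are libraries and black marks the mean and SD (n = 3); detected identifiers are lower, and the other measures higher, in all 3 Ly6D+Gfra2+ libraries.

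The plot of library measures sets detection beside a pair of abundant transcripts. NR_046233, an identifier without a name in the tables used, took 3.75%, 2.65% and 2.07% of all counts in Ly6D-Gfra2- and 6.35%, 7.44% and 4.4% in Ly6D+Gfra2+. Lars2, which encodes the mitochondrial leucyl-tRNA synthetase, was at 1310, 1250 and 929 CPM against 3320, 4070 and 4410 CPM and was called higher (log2 fold change 1.75, SE 0.18, edgeR adjusted p = 0.00492). Both were higher in every Ly6D+Gfra2+ library, and whether one moved with the other was not tested. The difference in Lars2 did not extend to the 3 Ly6D-Gfra2- libraries whose names start with P, outside the comparison. On a scale over all 13 libraries, Lars2 was at 3240, 4430 and 3620 CPM there. In Ly6D+Gfra2+ it was at 3260, 4020 and 4340 CPM on that scale.

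The sort markers were read first. Ly6d (chromosome 15, 74762056 to 74763567) was at 4, 5.43 and 8.39 CPM in Ly6D-Gfra2- and at 174, 287 and 209 CPM in Ly6D+Gfra2+. Its log2 fold change was 5.23 (SE 0.47, edgeR adjusted p = 0.00159). Gfra2 (chromosome 14, 70890107 to 70979840) was at 0.121, 0 and 3.54 CPM against 291, 521 and 371 CPM, with a log2 fold change of 8.43 (SE 1.22, edgeR adjusted p = 0.0265). Both transcripts follow the sorted proteins in every library, which checks the labels and is no finding about the cells. The call of Gfra2 was lost without Ly6D-Gfra2- replicate 4 or 5 or Ly6D+Gfra2+ replicate 4 or 6 (edgeR adjusted p = 0.151, 0.0659, 0.0617 and 0.0996), while its fold change stayed at 7.77 or more. The CLP label was read from Il7r, Flt3 and Kit, receptors that define these progenitors. Flt3 was at 1050, 1020 and 1270 CPM against 1080, 856 and 1210 CPM, and Kit at 284, 298 and 241 CPM against 213, 134 and 175 CPM. Il7r was at 342, 314 and 460 CPM against 1140, 758 and 927 CPM. All 3 were present in all 6 libraries.

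Over all genes, the edgeR test set the double-positive libraries apart by a short list of strongly higher genes and by 3 lower genes. The length of the list depends on the test, since DESeq2 called 235 higher and 151 lower. Of the genes that edgeR called higher, 9 stood in the lists of B-lineage factors, pre-B-cell receptor signalling and V(D)J recombination. Of 11613 genes tested, 33 were called (0.284%), 30 of them higher (0.258%) and 3 lower (0.0258%). At an unadjusted p under 0.05 there were 651 higher and 483 lower genes. The CPM of the groups did not overlap in 2159 genes (18.6%), 921 higher and 1238 lower, and in all 33 called genes. The median log2 fold change of all genes tested was 0.06. Without any one Ly6D-Gfra2- library the count was 12, 16 and 12, with no lower gene, though 343 to 355 genes were lower at an unadjusted p under 0.05 in edgeR. Without any one Ly6D+Gfra2+ library it was 29, 47 and 26. In all 6 of these fits 11 genes were called: Pou2af1, Rag1, Gimap4, Ebf1, Cecr2, Cd79a, Ly6d, Slc25a1, Chchd10, Pde2a and Lars2. The other 22 lost their call in at least 1, and all 33 kept their direction in each.

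**Figure D2:**
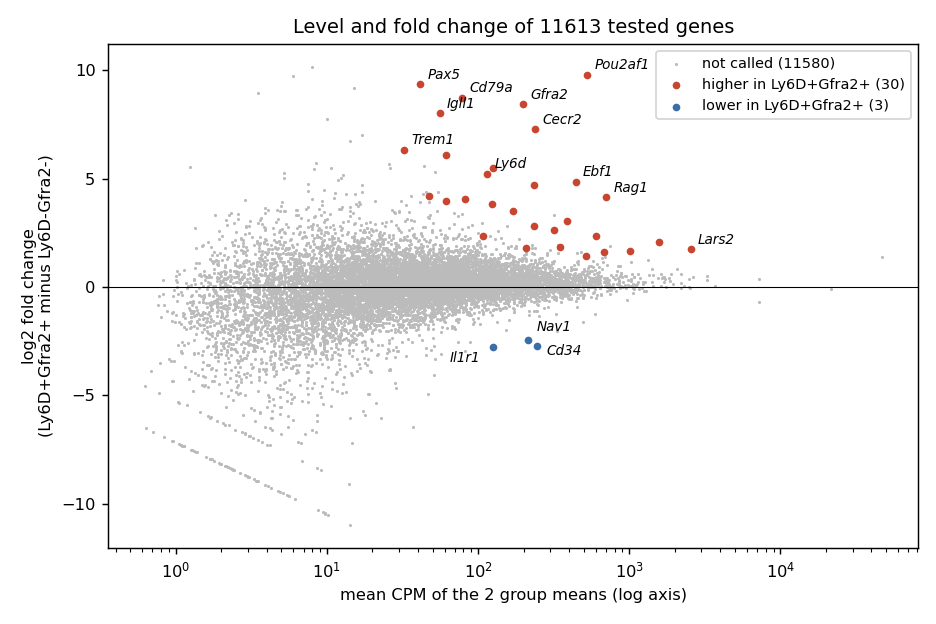
Log2 fold change of the 11613 tested genes against the mean CPM of both groups (log axis), with the 30 genes called higher in Ly6D+Gfra2+ in red, the 3 called lower in blue and all others in grey. All called genes have mean levels over 30 CPM, while many genes with larger fold changes at low levels were not called.

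The plot of level against fold change shows that many genes of low level and large fold change were not called. Of the genes tested, 62 were at 0 in all 3 Ly6D+Gfra2+ libraries and 3 in all 3 Ly6D-Gfra2- libraries, and none of these was called. In data simulated from the spread of these libraries, the test called 11% of the genes given a 4-fold change and 53% of the genes given a 16-fold change. The simulation gave both groups the same spread per gene, while the Ly6D+Gfra2+ libraries varied more, so these shares may differ in the real data.

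In Ly6D+Gfra2+, 4 transcription regulators of the B lineage rose from near absence or from a low level. Pou2af1 (chromosome 9, 51213690 to 51240079), the coactivator of Oct factors at immunoglobulin octamers, was at 1.21, 1.42 and 0.787 CPM in Ly6D-Gfra2- and at 979, 1230 and 947 CPM in Ly6D+Gfra2+. Its log2 fold change of 9.81 (SE 0.34, edgeR adjusted p = 3.06e-06) had the smallest p of all genes. Ebf1 (chromosome 11, 44618100 to 45008096), the factor that specifies the B-cell fate, was at 27, 42.5 and 18 CPM against 906, 887 and 766 CPM. That is a log2 fold change of 4.87 (SE 0.36, edgeR adjusted p = 0.000591), with every Ly6D-Gfra2- library above its floor of 3 counts. Ebf1 transcripts were thus counted in all double-negative libraries, while Pou2af1 was close to 1 CPM there.

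Foxo1 (chromosome 3, 52268337 to 52350109), which activates the recombinase genes and Il7r, was at 65.3, 95.2 and 91.8 CPM against 649, 977 and 457 CPM. It rose by a log2 fold change of 3.05 (SE 0.33, edgeR adjusted p = 0.00499), and its call was lost without Ly6D-Gfra2- replicate 4 or 6 (edgeR adjusted p = 0.0583 and 0.0631). Pax5 (chromosome 4, 44524748 to 44710694), the commitment factor of the B lineage, had 3 counts in all Ly6D-Gfra2- libraries together and 2172 in Ly6D+Gfra2+. Its levels were 0.364, 0 and 0 CPM against 92, 54.5 and 103 CPM, a ratio of 778 with a 95% counting interval of 266 to 3780 that covers counting error only. The edgeR adjusted p of Pax5 was 0.015, and 0.0738, 0.106 and 0.0732 without Ly6D-Gfra2- replicate 5, Ly6D-Gfra2- replicate 6 or Ly6D+Gfra2+ replicate 6. For all 4 genes every Ly6D+Gfra2+ library lay above every Ly6D-Gfra2- library.

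The other listed factors of the B lineage were not called. The list held 29 genes, of which 26 were tested, 4 called higher and none lower, with a median log2 fold change of 0.41 against 0.06 over all genes. At an unadjusted p under 0.05, 10 were higher and 1 lower. Irf4, a factor of the pre-B stage, was at 2.54, 1.5 and 8.39 CPM against 106, 92 and 62.2 CPM and missed the threshold (log2 fold change 4.39, edgeR adjusted p = 0.0747). Myb had 1080, 903 and 1070 CPM against 1580, 2340 and 1500 CPM (edgeR adjusted p = 0.207). The E2A gene Tcf3 (86.6, 108 and 87.1 against 153, 52.8 and 133 CPM), Ikzf1 (1480, 1340 and 1460 against 1020, 1500 and 1850 CPM) and Spi1 (128, 67.5 and 56.1 against 23.2, 112 and 181 CPM) overlapped between the groups. DESeq2 called 6 higher, adding Irf4 and Myb, and 1 lower, Mycn; limma voom called the same 6 higher and none lower.

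Components of the pre-B-cell receptor and its signalling chain formed the second group of called genes. Cd79a (chromosome 7, 24897497 to 24901858), a signalling subunit of the receptor, was at 0.121, 0.501 and 0.393 CPM against 123, 85.7 and 259 CPM, a log2 fold change of 8.75 (SE 0.78, edgeR adjusted p = 0.00159). Igll1 (chromosome 16, 16860671 to 16863985), the lambda5 part of the surrogate light chain, was at 0.121, 1 and 0 CPM against 99.9, 167 and 66.9 CPM (log2 fold change 8.02, SE 1.11, edgeR adjusted p = 0.0216). The call of Igll1 was lost without Ly6D-Gfra2- replicate 4 or 6 or Ly6D+Gfra2+ replicate 4 or 6 (edgeR adjusted p = 0.151, 0.084, 0.0592 and 0.0581). Both genes were near absent from every double-negative library.

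Blnk (chromosome 19, 40928927 to 40994221), the adaptor that passes the signal from Syk to Btk, differed in degree rather than in presence. It was at 95.6, 85.7 and 85.4 CPM against 356, 612 and 668 CPM, a log2 fold change of 2.62 (SE 0.29, edgeR adjusted p = 0.00633; 0.0636, 0.0703 and 0.0806 without each Ly6D-Gfra2- library in turn). Blk (chromosome 14, 63372837 to 63417187), a Src-family kinase of B cells, was at 13.5, 4.01 and 4.59 CPM against 118, 117 and 111 CPM (log2 fold change 3.97, SE 0.62, edgeR adjusted p = 0.0398). With 1 library left out, the call of Blk held only without Ly6D+Gfra2+ replicate 5 (edgeR adjusted p = 0.0381) and ran from 0.052 to 0.31 without each other library. Of the 22 listed genes, 19 were tested and 4 called higher, with a median log2 fold change of 1.9, 16 positive values and 10 higher at an unadjusted p under 0.05. None was called lower, and none was lower at an unadjusted p under 0.05; DESeq2 and limma voom each called 9 higher and none lower.

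The Vpreb genes had large differences without an edgeR call. DESeq2 and limma voom each called Vpreb1, Vpreb2, Vpreb3 and Cd24a higher. Vpreb1 and Vpreb2 encode the other part of the surrogate light chain. Vpreb1 was at 0.485, 0.25 and 0 CPM against 37.7, 42.5 and 20.7 CPM (log2 fold change 7.01, edgeR adjusted p = 0.0747), and Vpreb2 at 0.121, 0 and 0.131 CPM against 12.5, 10.9 and 36.9 CPM (log2 fold change 7.77, edgeR adjusted p = 0.0941). These paralogs share sequence, so counts may be split between them. Vpreb3 was at 0.121, 4.93 and 0.131 CPM against 95.8, 88.7 and 74 CPM (log2 fold change 5.58, edgeR adjusted p = 0.176). Its groups did not overlap, and 1 double-negative library, replicate 5, stood above the other 2. Cd24a, a surface glycoprotein of developing B cells, had the smallest adjusted p among genes not called (190, 443 and 314 against 1400, 1190 and 953 CPM, log2 fold change 1.90, edgeR adjusted p = 0.0546). Syk and Lyn, kinases used beyond B cells, were at 261, 231 and 235 against 276, 296 and 380 CPM and at 96.1, 78.8 and 94.7 against 93.4, 29.3 and 120 CPM.

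**Figure D3:**
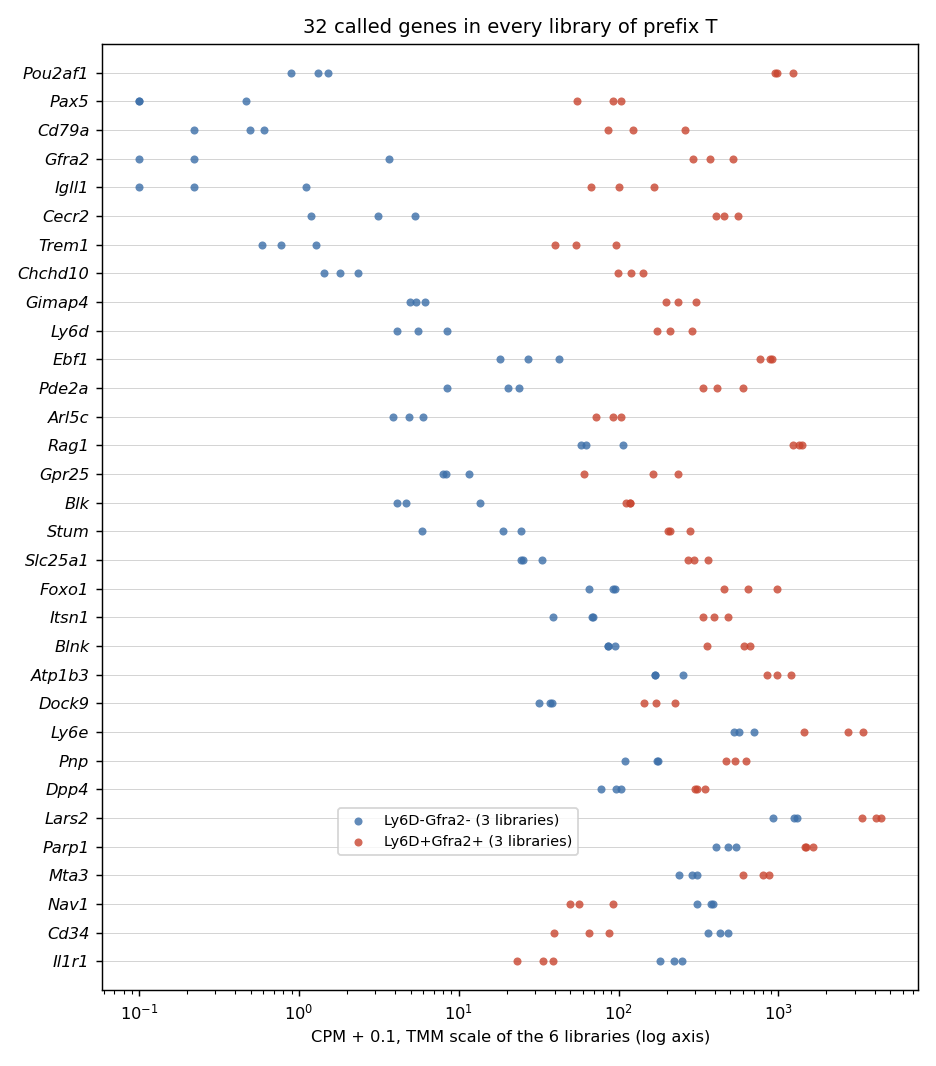
CPM (plus 0.1, log axis) of 32 of the 33 called genes in the 3 Ly6D-Gfra2- libraries (blue) and the 3 Ly6D+Gfra2+ libraries (red), ordered by log2 fold change. Pou2af1, Pax5, Cd79a, Gfra2 and Igll1 are below 5 CPM in every Ly6D-Gfra2- library, and Nav1, Cd34 and Il1r1 lie the other way round.

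Of the recombinase pair, Rag1 passed the test and Rag2 did not. Rag1 (chromosome 2, 101638252 to 101649532) was at 106, 62.7 and 58 CPM against 1410, 1240 and 1340 CPM, a log2 fold change of 4.13 (SE 0.29, edgeR adjusted p = 0.000591). Rag2, whose protein forms the recombinase with Rag1 and whose gene lies beside it, was at 357, 215 and 315 CPM against 733, 450 and 675 CPM (log2 fold change 1.07, SE 0.28, edgeR adjusted p = 0.217). The groups did not overlap for either gene, and the difference between the fold changes was not tested. Dntt, the polymerase that adds bases at the joints, was at 3460, 3860 and 3620 CPM against 4120, 3720 and 3420 CPM (log2 fold change 0.04, SE 0.13). Of 17 genes of recombination and end joining, 16 were tested and 1 was called, with a median log2 fold change of 0.02, which was -0.238 with library size alone in place of TMM. End-joining members such as Prkdc (194, 153 and 196 against 166, 176 and 204 CPM) and Xrcc6 (208, 189 and 209 against 297, 177 and 320 CPM) overlapped between the groups. The list had 2 genes higher and none lower at an unadjusted p under 0.05, and DESeq2 and limma voom each called Rag1 and Rag2 higher and none lower.

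Surface proteins of homing and maturation were called in 3 of 21 tested of 24 listed genes, among them Ly6d itself. Ly6e, a relative of Ly6d also on chromosome 15, was at 570, 708 and 529 CPM against 1450, 3390 and 2720 CPM (log2 fold change 2.06, SE 0.30, edgeR adjusted p = 0.0265). Without any one Ly6D-Gfra2- library Ly6e was not called (edgeR adjusted p of 0.117 to 0.242), nor without Ly6D+Gfra2+ replicate 6 (0.109). The list's median log2 fold change was 0.54 (-0.066 to 0.624 over the alternatives), with 11 positive and 10 negative values. None was called lower, and at an unadjusted p under 0.05, 9 were higher and 4 lower. DESeq2 called 8 higher and none lower, limma voom 6 higher and none lower. S1pr1, the receptor for egress into the blood, was at 11.8, 8.93 and 1.7 CPM against 124, 42.4 and 27.4 CPM (log2 fold change 3.11, edgeR adjusted p = 0.251), and Cd93 at 1680, 1530 and 1290 CPM against 2890, 2560 and 2450 CPM (log2 fold change 0.81, edgeR adjusted p = 0.0943). Cxcr4, the receptor that holds progenitors in the marrow, was at 177, 165 and 122 CPM against 354, 265 and 206 CPM (edgeR adjusted p = 0.388). Other members were lower without a call or overlap, such as Cd27, at 492, 452 and 485 CPM against 378, 268 and 324 CPM (log2 fold change -0.56, edgeR adjusted p = 0.433). Kit also was, with a log2 fold change of -0.66 (edgeR adjusted p = 0.467).

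Cytokine receptors had no called gene among 16 tested of 18 listed. Il7r (chromosome 15, 9506159 to 9529941), the interleukin 7 receptor, came closest, with a log2 fold change of 1.34 (SE 0.24, edgeR adjusted p = 0.0669) and groups that did not overlap. Crlf2, a receptor subunit for TSLP, was at 9.09, 11.9 and 10.9 CPM against 15.8, 45.1 and 66 CPM, and Ccnd3, the cyclin used in pre-B-cell division, at 69.3, 76.6 and 72 CPM against 216, 162 and 173 CPM (edgeR adjusted p = 0.42 and 0.173). Bcl2, the survival factor, was the other way round at 718, 406 and 481 CPM against 95.8, 51.7 and 249 CPM (log2 fold change -2.02, SE 0.53, edgeR adjusted p = 0.218). At an unadjusted p under 0.05, 5 of the list were higher and 1 lower in edgeR. DESeq2 called Il7r and Ccnd3 higher and Bcl2 lower, and limma voom called Il7r alone.

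Of the GDNF family beyond Gfra2, few transcripts were counted. Ret, the signalling kinase, and the ligands Gdnf and Nrtn, the gene of neurturin, were at 0 counts in all 6 libraries. By counting error alone, that allows up to 0.25 to 0.393 CPM a library. The bound may be too low in Ly6D+Gfra2+, where well-counted genes also dropped to 0. There, 317 of 8752 genes averaging 10 CPM or more lacked counts in 1 or more libraries, against 2 of 8946 in Ly6D-Gfra2-. Only 3 of the 12 listed genes were tested. Gfra1, the co-receptor for GDNF, was at 21.7, 68.6 and 59.9 CPM against 193, 7.51 and 116 CPM (log2 fold change 1.08, SE 0.91, edgeR adjusted p = 0.773), with overlapping groups. Sorl1, a sorting receptor, was at 34.5, 45.3 and 29.4 CPM against 24.1, 17.9 and 46.3 CPM. Ncam1, an alternative partner of these co-receptors, reached 0.584 CPM in 1 library and was at 0 in the other 5.

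Among the Gimap GTPases, Gimap4 was the member that passed the test. Gimap4 (chromosome 6, 48684578 to 48692062), of a family of lymphocyte survival genes that lie together on the chromosome, was at 5.33, 6.01 and 4.85 CPM against 198, 303 and 237 CPM (log2 fold change 5.50, SE 0.39, edgeR adjusted p = 0.000591). All 8 members had positive fold changes, with a median of 1.62, and 6 had an unadjusted p under 0.05. Gimap8 was at 20.1, 38.7 and 36.7 CPM against 110, 96.6 and 95.6 CPM, and Gimap6 at 154, 141 and 182 CPM against 242, 394 and 354 CPM (edgeR adjusted p = 0.222 and 0.218). DESeq2 called Gimap4, Gimap6 and Gimap8 higher and none lower, and limma voom called Gimap4 alone.

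Further called genes belonged to signalling, chromatin and metabolism and are not tied to 1 lineage. Cecr2 (chromosome 6, 120666314 to 120771191), a bromodomain subunit of a chromatin remodeller, was at 5.21, 1.09 and 3.02 CPM against 405, 460 and 562 CPM, a log2 fold change of 7.28 (SE 0.58, edgeR adjusted p = 0.00106). Chchd10, a mitochondrial protein, was at 1.7, 1.34 and 2.23 CPM against 143, 120 and 99.1 CPM (log2 fold change 6.10, SE 0.55, edgeR adjusted p = 0.00159). Pde2a, which breaks down cyclic AMP and cyclic GMP, was at 8.36, 23.7 and 20.1 CPM against 337, 598 and 412 CPM (log2 fold change 4.69, SE 0.46, edgeR adjusted p = 0.00325). These 3 were called in every fit that left out 1 library. Trem1, a receptor better known from neutrophils and monocytes, was at 0.485, 0.668 and 1.18 CPM against 54, 96.8 and 40.2 CPM (log2 fold change 6.34, SE 0.83, edgeR adjusted p = 0.015; 0.106 to 0.145 without any one Ly6D-Gfra2- library). The summed neutrophil and monocyte markers, given above and with a large share of Mpo, were lower in the libraries where Trem1 was higher. Which cells carried the Trem1 transcripts was not tested. Parp1, a sensor of DNA breaks, was at 481, 544 and 406 CPM against 1640, 1470 and 1500 CPM (log2 fold change 1.69, SE 0.18, edgeR adjusted p = 0.00499; 0.0636 and 0.0597 without Ly6D-Gfra2- replicate 4 or 6).

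The rule that chose the named genes left out 11 called genes, Blk among them, and these were chosen for naming after their values were seen. The other 10 were also higher in Ly6D+Gfra2+. Slc25a1, the citrate carrier of mitochondria, was at 25.1, 24.6 and 33 CPM against 272, 364 and 295 CPM (log2 fold change 3.49), and was called in every fit that left out 1 library. Atp1b3, a subunit of the sodium pump, was at 169, 254 and 170 CPM against 984, 1200 and 846 CPM (2.35), and Pnp, which splits purine nucleosides, at 176, 174 and 110 CPM against 537, 627 and 468 CPM (1.83). Itsn1, a scaffold of endocytosis, had a log2 fold change of 2.80, Dock9, an exchange factor for Cdc42, 2.34, and Arl5c, a small GTPase, 4.22. Dpp4, the surface peptidase CD26, had 1.80, Gpr25, an orphan receptor, 4.06, Stum 3.81 and Mta3, a subunit of the NuRD chromatin complex, 1.45. Their edgeR adjusted p ran from 0.00159 for Slc25a1 to 0.0398 for Mta3. Apart from Slc25a1, each of these lost its call without at least 1 library.

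Genes lower in the double-positive libraries were Cd34, Il1r1 and Nav1. Cd34 (chromosome 1, 194938821 to 194961292) was at 434, 484 and 363 CPM against 87.1, 65.5 and 39.5 CPM, a log2 fold change of -2.74 (SE 0.34, edgeR adjusted p = 0.0131). Il1r1 (chromosome 1, 40222480 to 40316201), the receptor for interleukin 1, was at 221, 182 and 251 CPM against 23.2, 33.8 and 38.6 CPM (log2 fold change -2.77, SE 0.36, edgeR adjusted p = 0.015). Nav1 (chromosome 1, 135434580 to 135688350), a microtubule-binding protein known from neurons, was at 377, 308 and 391 CPM against 56.2, 49.3 and 92.4 CPM (log2 fold change -2.44, SE 0.32, edgeR adjusted p = 0.0158). None of the 3 was called without any one Ly6D-Gfra2- library (edgeR adjusted p of 0.0708 to 0.0994 for Cd34, 0.0893 to 0.179 for Il1r1 and 0.0858 to 0.157 for Nav1), and Nav1 was also lost without Ly6D+Gfra2+ replicate 4 (0.0653).

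Other genes of stem cells and multipotent progenitors leaned the same way without passing. Of 24 listed, 19 were tested, 1 was called lower and none higher, the median log2 fold change was -0.66 and 6 were lower and none higher at an unadjusted p under 0.05. Hlf, a stem-cell transcription factor, was at 93.2, 57.3 and 103 CPM against 21.3, 17.1 and 11.5 CPM (log2 fold change -2.34, edgeR adjusted p = 0.165). Lmo2, a bridging factor of early haematopoiesis, was at 176, 241 and 190 CPM against 85.8, 71 and 41.6 CPM (log2 fold change -1.61, edgeR adjusted p = 0.17). Neither overlapped between the groups. Meis1, by contrast, was at 76.6, 111 and 60.3 CPM against 109, 103 and 94.6 CPM. DESeq2 called Cd34, Hlf, Lmo2 and Mycn lower and none higher, and limma voom called Cd34 lower and none higher.

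Genes of the other lineages had no edgeR call in either direction. In the T lineage and Notch list 13 of 22 were tested, the median log2 fold change was -0.38, and 1 was higher and 3 lower at an unadjusted p under 0.05. Tcf7, the factor of early T-cell specification, was at 5.94, 22.5 and 22.7 CPM against 0, 0 and 0.11 CPM, or 491 counts against 1, a ratio of 457 (95% counting interval 81.6 to 18100, edgeR adjusted p = 0.0978). Hes1, a Notch target, was at 0.848, 3.34 and 3.15 CPM against 16.2, 75.4 and 26 CPM (edgeR adjusted p = 0.209), and Notch1 itself at 699, 796 and 701 CPM against 709, 534 and 445 CPM. DESeq2 called Hes1 higher and Cd28 and Tcf7 lower, and limma voom called none.

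In the NK and innate list, 13 of 20 were tested with a median of 0.5, and 2 were higher and 2 lower at an unadjusted p under 0.05. Nfil3, needed for NK and innate lymphoid cells, was at 15.1, 16.8 and 55.5 CPM against 0, 0 and 0.551 CPM (log2 fold change -7.18, edgeR adjusted p = 0.171). DESeq2 called Nfil3 lower and Itga4 higher, and limma voom Itga4 higher. In the dendritic list, 12 of 20 were tested with a median of -0.19, and none was higher and 3 lower at an unadjusted p under 0.05. Runx2, used by plasmacytoid dendritic cells, was at 845, 928 and 728 CPM against 270, 402 and 387 CPM (log2 fold change -1.24, edgeR adjusted p = 0.0747), and DESeq2 and limma voom each called it lower and nothing else. The dendritic receptor gene Siglech was at 17.4, 29.8 and 15.9 CPM against 16.9, 29.9 and 9.25 CPM.

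In the granulocyte and monocyte list, 14 of 23 were tested with a median of -0.55, and none was higher and 4 lower at an unadjusted p under 0.05. Mpo, the peroxidase of early myeloid cells, was at 660, 770 and 826 CPM against 99.4, 316 and 314 CPM (log2 fold change -1.63, edgeR adjusted p = 0.198), and Itgam at 107, 98.1 and 61.6 CPM against 20, 13.2 and 6.94 CPM (log2 fold change -2.73, edgeR adjusted p = 0.141). DESeq2 called both lower, and limma voom Mpo. Of 20 erythroid and megakaryocyte genes 8 were tested, with a median of -1.09, no gene at an unadjusted p under 0.05 and no call by DESeq2 or limma voom. Mature B and plasma cell genes had 13 of 18 tested with a median of -0.45 (-1.29 to 0.745 over the alternatives), 2 higher and none lower at an unadjusted p under 0.05. DESeq2 called 2 higher and none lower, and limma voom 1 higher and none lower. Of the stroma and endothelium list 2 of 15 were tested.

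No gene of the cell cycle or growth lists was called. For G2 and mitosis all 20 listed genes were tested (median 0.13), for G1/S and replication all 22 (-0.04) and for Myc targets and ribosome biogenesis all 19 (0.19). None was called by edgeR, DESeq2 or limma voom, and 1, 1 and 2 were higher and 1, 0 and 0 lower at an unadjusted p under 0.05. Myc was at 614, 687 and 783 CPM against 697, 1000 and 1490 CPM. Interferon response (17 of 18 tested, median 0.05) and glycolysis (15 of 16, median 0.25) also had no call by any of the 3, with 0 and 1 higher and 1 and 0 lower at an unadjusted p under 0.05. With library size alone, the medians of all genes and of the G2, Myc, interferon and glycolysis lists were below 0, at -0.192, -0.138, -0.051, -0.135 and -0.035.

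The PI3K pathway, which restrains Foxo1, had 21 of 21 tested with a median of 0.14, no edgeR call, and 4 higher and 2 lower at an unadjusted p under 0.05. Inpp5d, the phosphatase SHIP1, was at 293, 264 and 296 CPM against 440, 631 and 663 CPM (log2 fold change 1.02, edgeR adjusted p = 0.165), and the groups did not overlap. DESeq2 called 3 higher, Gab1 and Inpp5d among them, and Pik3cb lower, and limma voom called 1 higher and none lower. The list's median was -0.067 with library size alone. In the Bcl2 family (9 of 14 tested, median 0.32) the median ran from -0.811 to 0.538 over the alternatives. DESeq2 called Bcl2 lower and nothing else, limma voom nothing, and edgeR had none higher and 1 lower at an unadjusted p under 0.05. Iron handling (11 of 13 tested, median 0.25) had 3 higher and none lower at that p. Its leading gene was Steap3, a reductase of endosomal iron, at 9.57, 8.35 and 9.05 CPM against 55.5, 106 and 90.2 CPM (log2 fold change 3.22, edgeR adjusted p = 0.0601), which DESeq2 and limma voom called. Immediate early and dissociation genes (17 of 18 tested) had a median of 0.81, 3 higher and 1 lower at an unadjusted p under 0.05, and no edgeR or limma voom call; DESeq2 called Jun, at 176, 278 and 390 CPM against 464, 693 and 698 CPM. That list is induced when tissue is handled, and its part in the other results was not tested.

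**Figure D4:**
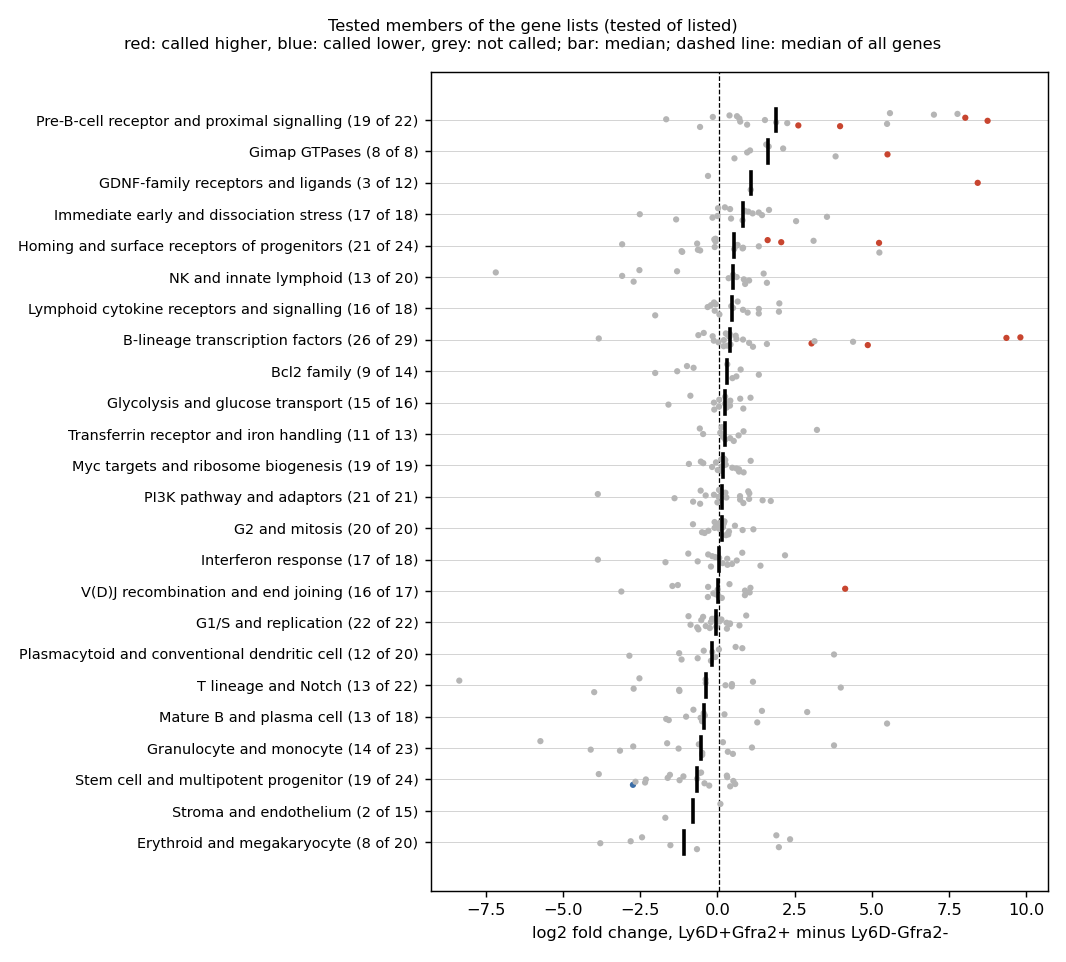
Log2 fold changes of the tested members of 24 gene lists, with members called higher in red, called lower in blue and all others in grey; black bars are list medians and the dashed line is the median of all tested genes. The red points stand to the right of their own list medians, and the only blue point is Cd34.

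In the plot of gene lists, the pre-B-cell receptor list had the highest median, at 1.9, and the erythroid and megakaryocyte list the lowest, at -1.09. Over the alternatives the first ran from 1.63 to 2.03 and the second, with 8 of 20 genes tested, from -3.86 to 0.313. In the B-lineage factor list the 4 called members had fold changes of 3.05 to 9.81, while the list median was 0.41.

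The third compartment of the series, Ly6D+Gfra2-, has 2 libraries of the same prefix, replicates 5 and 6. Their levels place most of the called genes between the compartments compared. On a scale over all 13 libraries, both lay between the groups for 20 of the 30 higher genes and for all 3 lower genes. The share of all tested genes that lies so was not counted. Ebf1 was at 161 and 128 CPM there, against 17.8 to 42.1 CPM in Ly6D-Gfra2- and 754 to 891 CPM in Ly6D+Gfra2+. Rag1 was at 208 and 158 CPM against 57.3 to 105 and 1230 to 1380 CPM, and Cd79a at 5.6 and 6.6 CPM against 0.119 to 0.496 and 84.6 to 254 CPM. Cd34 was at 219 and 148 CPM against 359 to 479 and 38.9 to 85.7 CPM. For these genes the Ly6D+Gfra2- libraries of prefix T were intermediate, with no overlap on either side. In the Ly6D+Gfra2- libraries of prefix P, replicates 1 and 2, Ebf1 (165 and 92.7 CPM), Rag1 (169 and 222 CPM) and Cd79a (1.3 and 3.96 CPM) also were. Cd34 was at 452 and 192 CPM there. Gimap4 and Trem1, among the 20, were at 1.62 and 3.2 CPM and at 0 and 0.0508 CPM. Both genes were thus below every Ly6D-Gfra2- library of prefix T (4.8 to 5.95 and 0.476 to 1.17 CPM).

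Other called genes were not intermediate. Ly6d (349 and 507 CPM) and Ly6e (1640 and 1670 CPM) were at or above the lowest Ly6D+Gfra2+ library in both Ly6D+Gfra2- libraries of prefix T. Igll1 (0.0933 and 0 CPM), Pnp (149 and 148 CPM) and Dock9 (35.7 and 26 CPM) were at or below the highest Ly6D-Gfra2- library. Pou2af1 was at 1.12 CPM in replicate 5 and 45 CPM in replicate 6, against 931 to 1220 CPM in Ly6D+Gfra2+, and Pax5 at 0.187 and 0.71 CPM against 53.8 to 101 CPM. Gfra2, by which these cells were sorted as negative, was at 0.28 and 4.57 CPM. Gpr25 (94.7 and 39.9 CPM) had 1 library between the groups and 1 at the positive side. With 2 libraries and genes chosen for the outer groups, these positions are a description without a test.

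**Figure D5:**
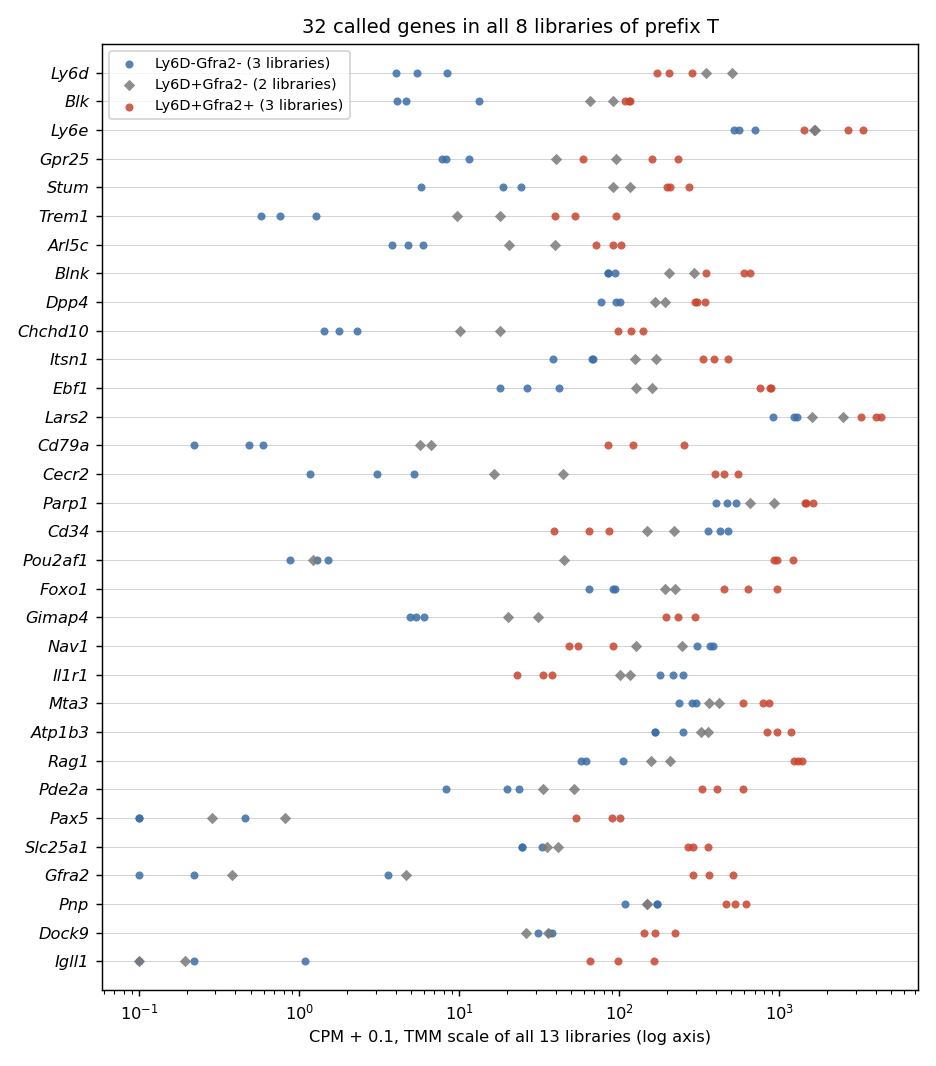
CPM (plus 0.1, log axis, scale of all 13 libraries) of 32 of the 33 called genes in the 8 libraries of prefix T: Ly6D-Gfra2- (blue, 3), Ly6D+Gfra2- (grey diamonds, 2) and Ly6D+Gfra2+ (red, 3). Genes are ordered by how far the Ly6D+Gfra2- libraries lie toward Ly6D+Gfra2+, from Ly6d at the top to Igll1 at the bottom.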

How the data were processed

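The deposited values are untransformed read counts for RefSeq identifiers, per the file headers, in 1 file a library. RNA came from sorted cells through a Qiagen micro kit and NuGEN Ovation kits, per the labels' protocols. FastQC, HISAT, TopHat, HOMER, DESeq and build mm10 are named in the submitters' processing notes, without role or version. Strand setting, annotation version and the treatment of multiply mapped reads are not given in the sources used here, so overlapping and antisense genes cannot be told apart, nor can paralogs such as Vpreb1 and Vpreb2. All 24072 identifiers were in every file; 23815 were named from the RefSeq table for GRCm38.p6 (the assembly also called mm10), 144 from GENCODE M21, and 113 had no name.

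Counts of the 6 libraries were tested with edgeR 4.0.16 (glmQLFTest, two-sided) in R 4.3.3, group alone as the term, TMM, and filterByExpr with a minimum count of 10 and total of 15. Libraries held 6892728 to 10847792 counts; intervals and floors of 3 counts cover counting error only, since amplified reads are not separate molecules. Per list, only counts and medians are given, without a test. The members, the 24 gene lists and the tests were chosen with earlier results of these data known. Named genes were Ly6d, Gfra2, Ebf1 and Cd34; per direction up to 12 called genes with the largest fold change, no overlap of the groups and 5 CPM or more on average in the higher one, and the 5 with the highest level; and the 3 lowest p of each list. Some genes of that rule are not reported here. Alternatives were DESeq2 1.42.0, limma 3.58.1 voom with quality weights (called limma voom here), other scalings and filters, and a fold threshold. Others were the replicate block, more libraries in the fit and each library left out. A further fit, without NR_046233 and Lars2, was chosen after seeing the data. On simulated data with 100 of 11613 genes changed for each fold size, 3 of 67 calls were false and none had the wrong sign. That simulation used a spread shared by both groups, so it cannot give the rate of false calls under the unequal spread of these libraries.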

Additional observations from a re-analysis of the deposited data

Results flagged for a closer look

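The library labelled Ly6D-Gfra2- replicate 3, which has the prefix P and entered none of the comparisons above, had a Ly6d level of 213 CPM, inside the range of 171 to 283 CPM of the Ly6D+Gfra2+ libraries on the same scale of 13 libraries. Ly6D-Gfra2- replicates 1 and 2, also of prefix P, had 6.67 and 0.623 CPM, and the 3 of prefix T 3.93 to 8.3 CPM. The Ebf1 level of the library labelled Ly6D-Gfra2- replicate 3 was 127 CPM, against 12.8 and 9.21 CPM in Ly6D-Gfra2- replicates 1 and 2. Ly6D+Gfra2- replicates 1 and 2, of the same prefix P, had Ly6d at 158 and 169 CPM and Ebf1 at 165 and 92.7 CPM.

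In that library 24 of the 30 genes called higher lay above every Ly6D-Gfra2- library of prefix T, against 12 and 10 in replicates 1 and 2. Replicate 3 had 6.62 CPM of Pax5, where Ly6D-Gfra2- replicates 1 and 2 had 0. Its Pou2af1, Cd79a and Gfra2 levels were 1.65, 1.02 and 5.5 CPM, against 931 to 1220, 84.6 to 254 and 287 to 515 CPM in Ly6D+Gfra2+. Igll1 was at 0 in all 3 Ly6D-Gfra2- libraries of prefix P, against 65.8 to 165 CPM in Ly6D+Gfra2+. A signal in libraries outside the comparison is what singled out these values.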

How the results depend on the processing

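The 33 called genes kept their direction in each of 17 alternatives that tested them (Lars2 was left out of 1), and 9 kept their call in all 17. In place of 33 (30 higher, 3 lower), DESeq2 called 386 (235 and 151), with 287 genes without an adjusted p, and limma voom 98 (93 and 5). No filter gave 65 (55 and 10), and a minimum log2 fold change of 1 gave 19 (19 and 0; 309 lower at an unadjusted p under 0.05). A fit of all 8 libraries of prefix T gave 62 (54 and 8), and one of all 13 with a prefix term 177 (118 and 59), of which 28 were among the 33. There Ly6d had a log2 fold change of 4.01 (edgeR adjusted p = 0.236), and the fit includes the library labelled Ly6D-Gfra2- replicate 3. RLE factors gave 33, library size alone 28 (without Dock9, Pnp, Dpp4, Blk and Mta3, among others), a filter of 5 CPM 36, and a fit without NR_046233 and Lars2, chosen after seeing the data, 32.

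Leaving out 1 library gave 12 to 47 called genes, 12 to 39 higher and 0 to 8 lower. The log2 fold change of Gfra2 then ran from 7.77 to 12.59. The log2 fold change of Hbb-bs ran from -5.44 to 0.99, the latter, a reversal, without Ly6D-Gfra2- replicate 5, the library with erythroid transcripts. Pecam1 reversed to -0.17 with library size alone, to -0.040 with 13 libraries and to -0.14 without Ly6D+Gfra2+ replicate 4, and ran up to 0.26 when 1 library was left out; the cause was not tested. These are all 4 reversals among 1525 gene values, and 64 of 408 list medians moved by more than 1 SD.

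The replicate block, with the number 4, 5 or 6 of the labels as a term, gave 39 called genes (35 higher, 4 lower), 30 of them among the 33, without Dock9, Dpp4 and Mta3. Same-numbered libraries did not deviate together (correlations of 0.011, -0.002 and 0.003 over genes), and not every library correlated best with its own number. Genes detected at 5 counts or after thinning kept the same direction. Depth limits genes of low level, since 3 counts are up to 0.393 CPM.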
